A study of Mus musculus with 2 samples.

Results

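Vcam1, Icam1, Cdh2, Cdh11, Cd44, Cd200, Ncam1, Alcam and Jam2 encode surface proteins by which marrow stromal cells hold on to each other, to matrix and to blood cells. They were chosen by name, as 9 of the 25289 genes counted, and are described over the 7 cell classes and the 3 differentiation paths that the authors gave the cells. The study measured RNA in single stromal cells of mice, and its labels give 1 group of 2 samples, Stroma1 (2 libraries) and Stroma2 (3 libraries). The strain is labelled C56BL/6 and the age 8 to 16 weeks, with no transgene, agent or disease named. Femurs, tibiae and pelvis were crushed, digested with collagenase and dispase, and sorted for cells negative for CD31, CD45 and Ter119, which removes most endothelial, leukocyte and erythroid cells. The labels do not say that the samples came from separate animals. Each sample was a block in the tests, so a p-value below rests on how differences between classes or along paths varied between these 2 samples. The spread was estimated with information from all genes tested, and it does not measure the spread between animals.

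Vcam1 and Icam1 are immunoglobulin-family ligands of integrins on leukocytes. In marrow Vcam1 on reticular stroma retains progenitors and B lineage cells, and Icam1 is known as a gene that inflammatory signals raise through NF-kB. Cdh2 (N-cadherin) and Cdh11 (OB-cadherin) bind their own kind on a neighbouring cell and anchor to actin through catenins. Ncam1 and Alcam are immunoglobulin-family molecules of cell-to-cell contact, Jam2 belongs to the junctional adhesion molecules, Cd200 engages an inhibitory receptor on myeloid cells, and Cd44 is the main receptor for hyaluronan and also binds osteopontin.

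Cells passing the authors' filter numbered 948 in Stroma1 (1658990 counts in all) and 1899 in Stroma2 (3687913 counts). MSC had 502 and 815 cells, Adipocyte progenitor 165 and 298, Osteoblast progenitor 144 and 260, Pro-osteoblast 42 and 305, Pre-adipocyte 66 and 145 and Pre-osteoblast/chondrocyte 25 and 66. Pro-chondrocyte had 4 and 10 cells, and its values carry no test. Summed levels of reticular stroma markers ran from 71147 and 73116 counts-per-million (CPM) in MSC to 1917 and 573 CPM in Pro-osteoblast, and osteoblast markers reached 211854 and 210014 CPM in Pro-osteoblast. All 5 cartilage markers in the table (Col2a1, Acan, Sox9, Chad and Ucma) were at 0 in the Pro-chondrocyte cells, so the data do not bear that label out and it is used only as the authors' name. Summed endothelial markers were between 0 and 96.8 CPM in every class and sample. Summed macrophage markers were between 0 and 64.2 CPM, the highest in Pre-adipocyte of Stroma1. They came from C1qc, Mrc1, Csf1r, Cd68 and Lyz2, while C1qa, C1qb, Adgre1 and Vsig4 were at 0 throughout. Some cells carried a barcode seen in another library of their sample, 64 in Stroma1 and 435 in Stroma2, and results that moved when each barcode was kept once are given in the closing section.

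Levels are given as CPM of all counts of a class in a sample, first for Stroma1 and then for Stroma2, and are compared within a gene only. Tests used counts summed per class and sample, with each of the 6 larger classes set against the equally weighted mean of the other 5, an adjusted p under 0.05 counting as called. The authors' classes and pseudotimes were made from the expression of the same cells, perhaps including these genes, so the p-values are not independent of how the classes were drawn. Fold changes are on a TMM scale, which places the middle of all genes near 0. Scaling by raw totals moved the median of all genes by -1.09 (log2) in Pro-osteoblast and by -1.11 at the end of the osteoblast path. The same scaling moved it by 0.39 in MSC, 0.35 in Osteoblast progenitor, 0.18 in Adipocyte progenitor, 0.15 in Pre-osteoblast/chondrocyte and -0.26 at the end of the adipocyte path. It also changed the share of calls that were higher from 54.3% to 10.2% in Pro-osteoblast, from 54.2% to 85.8% in MSC, from 65.4% to 92.5% in Osteoblast progenitor, from 73.9% to 88.7% in Adipocyte progenitor and from 56.9% to 68.1% in Pre-osteoblast/chondrocyte. On the paths the share went from 49.4% to 10.7% for osteoblast and from 72.9% to 42.4% for adipocyte. A member is therefore named as such where its call in a class or on a path depends on the scale, or its direction where called.

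**Figure D1:**
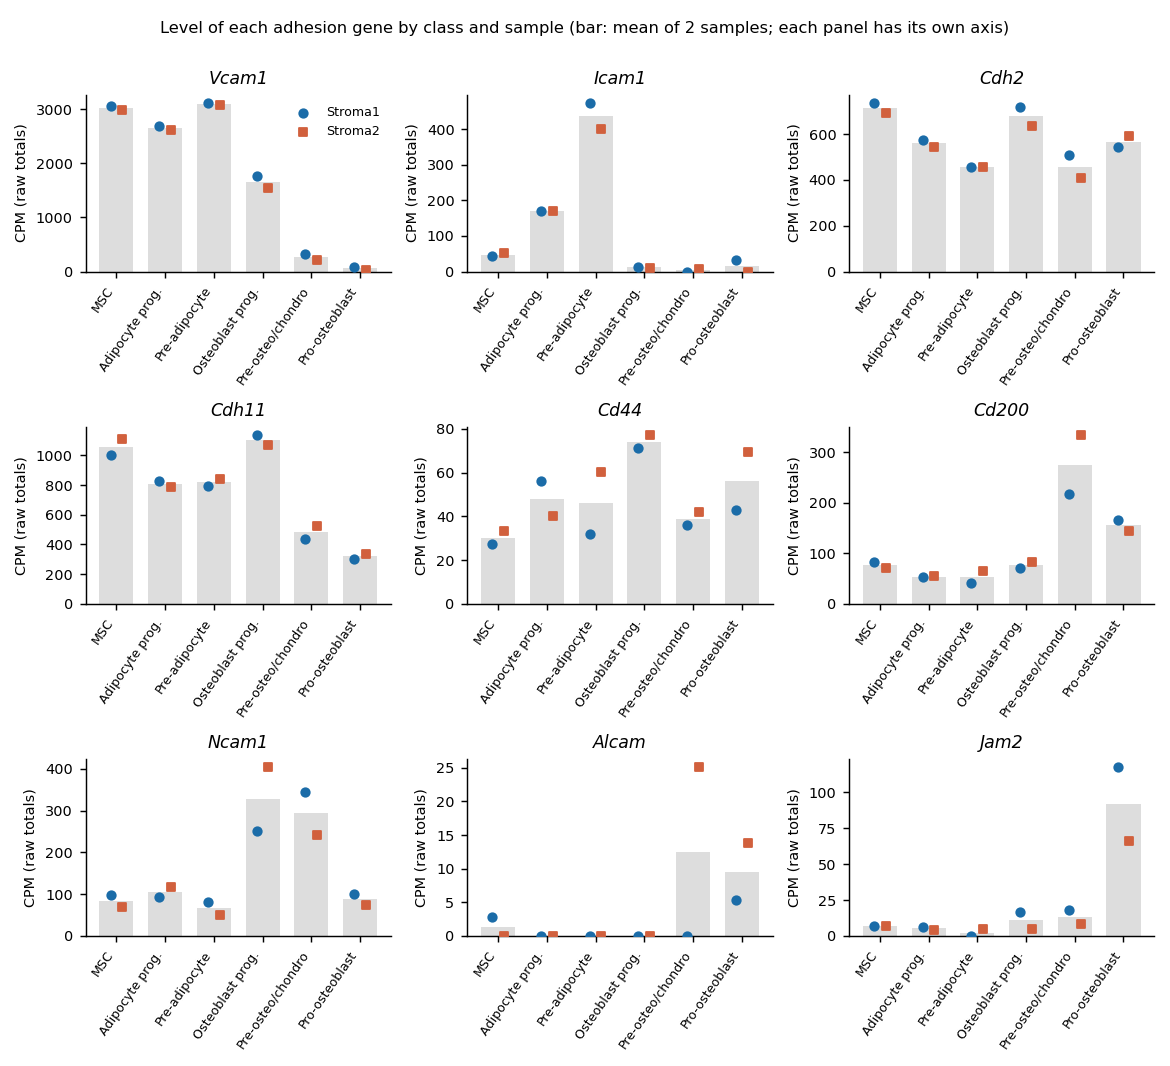
Level of each of the 9 adhesion genes in the 6 larger cell classes, in counts-per-million of all counts, on a linear axis of its own for each gene. Circles are Stroma1, squares Stroma2 and grey bars the mean of both. Vcam1 lies between 2615 and 3114 CPM in MSC and the 2 adipocyte classes and at 90.8 and 33.1 CPM in Pro-osteoblast, while Jam2 reaches 118 and 66.2 CPM there.

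Of the 9 genes 8 passed the low-count filter for the classes, all but Alcam. In Pro-osteoblast 4 of them were called higher and 2 lower, where 21.4% of all 6229 genes tested were higher and 17.9% lower (39.3% in all). In MSC 2 were higher (11.2% of all genes) and 3 lower (9.46%, 20.6% in all), in Pre-adipocyte 2 (14.5%) and 2 (6.21%, 20.7% in all) and in Adipocyte progenitor 2 (11.4%) and 1 (4.01%, 15.4% in all). In Pre-osteoblast/chondrocyte 2 were higher (6.92%) and 3 lower (5.23%, 12.2% in all), and in Osteoblast progenitor 3 were higher (5.99%) and 0 lower (3.16%, 9.15% in all), so Osteoblast progenitor was the class where the fewest genes at large were called. With raw totals the counts became 2 higher and 4 lower in Pro-osteoblast (64.5% of all genes called), 3 and 1 in MSC (34.2%) and 2 and 2 in Pre-osteoblast/chondrocyte (12.3%), and stayed 2 and 1 in Adipocyte progenitor (18%), 2 and 2 in Pre-adipocyte (20.8%) and 3 and 0 in Osteoblast progenitor (17.9%). The median log2 fold of the tested adhesion genes was 0.69 in Pro-osteoblast and -0.52 in Pre-osteoblast/chondrocyte, against 0.03 and -0.06 for all genes, and lay between -0.36 and 0.20 in the other classes. Pairs of classes were tested too. Pairs with Pro-osteoblast called 38.6% of all genes against MSC, 38.2% against Adipocyte progenitor, 38.9% against Pre-adipocyte, 31.8% against Osteoblast progenitor and 17.2% against Pre-osteoblast/chondrocyte. Pairs with Pre-osteoblast/chondrocyte called 18% against MSC, 16.5% against Adipocyte progenitor, 19.1% against Pre-adipocyte and 9.31% against Osteoblast progenitor. Among the rest, MSC differed in 4.17% from Adipocyte progenitor, 10.3% from Pre-adipocyte and 7.93% from Osteoblast progenitor, and the last differed in 7.55% from Adipocyte progenitor and 13.4% from Pre-adipocyte, which differed from each other in 4.96%.

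Vcam1 was high in the reticular and adipocyte classes and fell in steps through the bone classes. It stood at 3058 and 2983 CPM in MSC, 2694 and 2615 CPM in Adipocyte progenitor and 3114 and 3081 CPM in Pre-adipocyte. Levels were 1764 and 1547 CPM in Osteoblast progenitor, 326 and 217 CPM in Pre-osteoblast/chondrocyte and 90.8 and 33.1 CPM in Pro-osteoblast, the last from 17 and 48 counts. The order of the 6 classes was the same in both samples, and no value of the 3 bone classes overlapped with a value of the other 3. In the 14 Pro-chondrocyte cells Vcam1 had 0 counts, which allows up to 186 CPM (the level of 3 counts).

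Against the mean of the other classes Vcam1 was higher in Pre-adipocyte (log2 2.17, SE 0.11, adjusted p = 1.1e-29), MSC (1.77, SE 0.10, adjusted p = 1.7e-26), Adipocyte progenitor (1.74) and Osteoblast progenitor (0.76, adjusted p = 4.6e-07). It was lower in Pre-osteoblast/chondrocyte (-2.27, SE 0.23) and Pro-osteoblast (-4.17, SE 0.20, adjusted p = 5.0e-32). Of the 15 pairs of classes, 12 were called for Vcam1. The other 3 pairs were those among MSC, Adipocyte progenitor and Pre-adipocyte, with differences of -0.02 (95% interval -0.25 to 0.21) for Adipocyte progenitor over MSC and -0.33 (-0.58 to -0.09, adjusted p = 0.0807) for MSC over Pre-adipocyte. The step from Osteoblast progenitor to Pre-osteoblast/chondrocyte was the widest between neighbours on the TMM scale, at log2 2.53. With raw totals it was 2.70, and the step from there to Pro-osteoblast was nearly as wide. On that scale Adipocyte progenitor exceeded Pre-osteoblast/chondrocyte by 3.37 and Pro-osteoblast by 6.00.

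The share of cells with a Vcam1 count gave the same picture at equal depth. With every cell thinned to 500 counts, 69.0% of MSC, 65.4% of Adipocyte progenitor and 67.8% of Pre-adipocyte cells had a count, against 46.0% of Osteoblast progenitor, 12.1% of Pre-osteoblast/chondrocyte and 1.44% of Pro-osteoblast cells (unthinned 86.3%, 87.7%, 87.7%, 65.6%, 30.8% and 5.76%). Barcodes with B lineage markers outside the filter, which should lack Vcam1, had a count in 2.46% after thinning and 5.804% before it. The Pro-osteoblast share, at a median of 4287 counts per cell against 1010 in those barcodes, was at or below that background, and the Pre-osteoblast/chondrocyte share was above it.

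The genes whose pattern over the 12 class-by-sample sums was most like that of Vcam1 were Kitl (stem cell factor, Pearson r = 0.998), Lepr (the leptin receptor, 0.995) and Plpp3 (a lipid phosphatase, 0.994), of 1494 genes compared. These sums share libraries and depth, so r is a description. Kitl ran from 1426 and 1504 CPM in MSC to 53.4 and 14.5 CPM in Pro-osteoblast. Among the 9 genes themselves, the pattern of Vcam1 was most like that of Cdh11 (0.910) and most unlike that of Jam2 (-0.845).

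Icam1 marked the adipocyte side of the marrow stroma. Its level was 473 and 400 CPM in Pre-adipocyte, 169 and 170 CPM in Adipocyte progenitor and 42.5 and 50.7 CPM in MSC. In the bone classes it came from few counts, 12.6 and 10.3 CPM in Osteoblast progenitor (3 and 4 counts), 0 and 8.35 CPM in Pre-osteoblast/chondrocyte (0 and 1 counts) and 32.0 and 0 CPM in Pro-osteoblast. The Pro-osteoblast value of Stroma1 was 6 counts in 2 cells. Icam1 was thus ordered Pre-adipocyte, Adipocyte progenitor, MSC in both samples with no overlap, while the 3 bone classes could not be ordered.

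Icam1 was higher than the mean of the other classes in Pre-adipocyte (log2 4.48, SE 0.31, adjusted p = 4.0e-22) and in Adipocyte progenitor (2.71, SE 0.34, adjusted p = 1.8e-10), the second of which DESeq2 did not call (2.47, adjusted p = 0.191). Adipocyte progenitor exceeded MSC by log2 2.01 (95% interval 1.37 to 2.65) and stood at -1.47 against Pre-adipocyte (adjusted p = 3.8e-04). The lower call in Pro-osteoblast (-2.39, adjusted p = 0.0162) rested on Stroma2, since the fold was 1.05 in Stroma1 alone and -7.64 in Stroma2 alone, and it was lost without library 2.2 of Stroma2 (-1.08, adjusted p = 0.999). In thinned cells 17.5% of Pre-adipocyte, 6.48% of Adipocyte progenitor and 2.05% of MSC cells had an Icam1 count (unthinned 35.1%, 18.1% and 5.16%), against 1.56% (unthinned 2.01%) of the B lineage barcodes. The shares of the 3 bone classes, at most 0.495% thinned, were below that of these barcodes. Whether B lineage cells carry Icam1 themselves was not tested, so their share may not be a background.

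The genes with the pattern most like Icam1 were Cxcl10 (r = 0.981) and Ccl2 (0.973), both inflammatory chemokines, and Pim1 (0.963), a kinase. Cxcl10 reached 1059 and 748 CPM in Pre-adipocyte against 132 and 59.4 CPM in MSC. Counts for gene lists, here and below, are on the TMM scale. Of all genes, 20.7% were called in Pre-adipocyte, 15.4% in Adipocyte progenitor and 20.6% in MSC. The shares were 39.3% in Pro-osteoblast, 12.2% in Pre-osteoblast/chondrocyte and 9.15% in Osteoblast progenitor. Of 18 listed feedback regulators and targets of NF-kB, 15 could be tested between classes. In Pre-adipocyte 12 were higher and 0 lower, with a median log2 fold of 2.66 where the median of all genes was 0.02, and in Adipocyte progenitor 10 were higher and 0 lower (median 1.78). The inhibitor gene Nfkbia stood at 4221 and 3918 CPM in Pre-adipocyte, 2728 and 2598 CPM in Adipocyte progenitor and 620 and 612 CPM in MSC. Il6, a cytokine, had 77 and 87 counts in Pre-adipocyte and 0 in both Pre-osteoblast/chondrocyte and Pro-osteoblast. In MSC 1 listed gene was higher and 3 lower, in Osteoblast progenitor 0 and 6, in Pre-osteoblast/chondrocyte 0 and 1, and in Pro-osteoblast 0 and 10. Summed neutrophil markers were 1966 and 335 CPM in Pre-adipocyte, from 3 and 2 of the 7 listed genes. These were S100a8 and S100a9 in both samples and Ltf in Stroma1, with Ngp, Camp, Elane and Mpo at 0 in both samples. They were at most 350 CPM in any other class and sample. Icam1 itself had 0 counts in the 30 barcodes with neutrophil markers outside the filter.

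**Figure D2:**
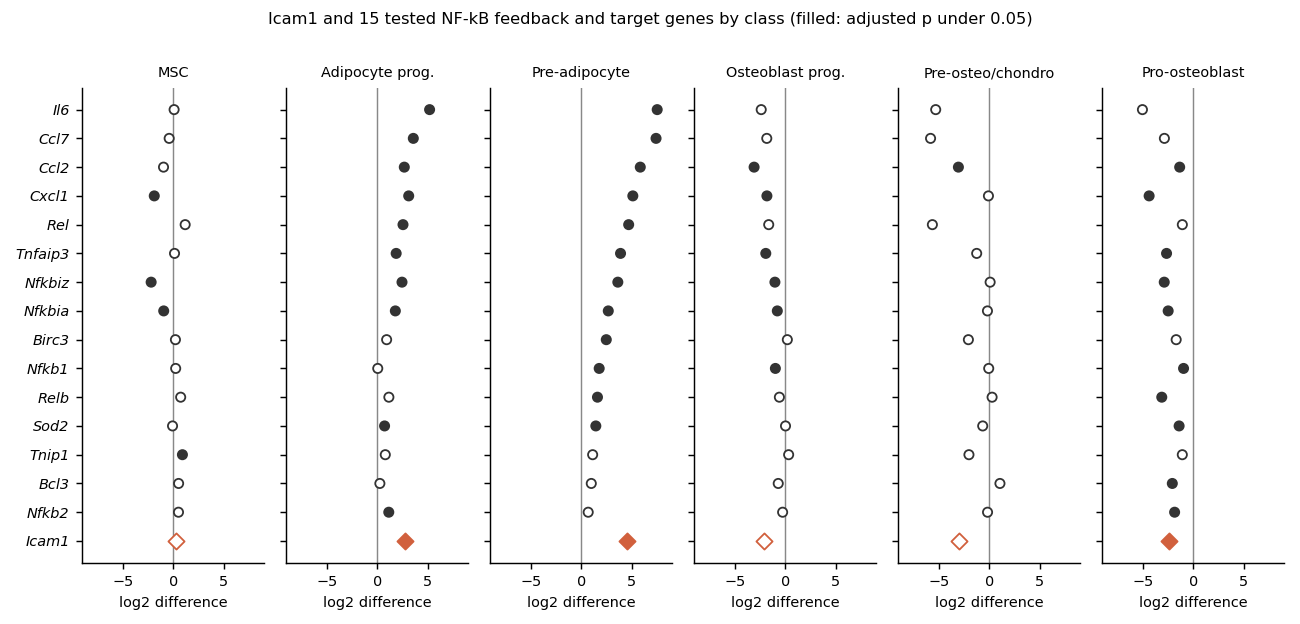
Icam1 and the listed NF-kB feedback and target genes in each class, as log2 fold change against the mean of the other classes on the TMM scale. Circles are the 15 tested list genes and diamonds Icam1, filled where the adjusted p is under 0.05. Icam1 lies at 4.48 in Pre-adipocyte and 2.71 in Adipocyte progenitor, where 12 and 10 list genes are called higher, and at -2.39 in Pro-osteoblast, where its sign differs between the samples.

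The sequence upstream of Icam1 is shown because genes listed as NF-kB targets were higher in the same classes. The RefSeq promoter table (GRCm38.p6) holds 4 of the 9 genes, Icam1, Cd44, Cd200 and Alcam. In the 250 bases before the start, 6 motifs were searched on both strands: the NF-kB type GGANNTTCC, a second NF-kB type of GGG and TTTCC with any 2 bases between them, which can overlap the first, the AP-1 type TGANTCA, the C/EBP type TTGCNNCAA, the Runx type TGTGGT and the TATA type TATAAA. Of 32536 windows of the same length, 3.59%, 1.4%, 6.73%, 1.75%, 14% and 12.3% hold these motifs, and 4.6% hold either NF-kB type. The Icam1 window (chr9:21015690-21015939, plus strand) is printed with its 1 match, GGAAATTCC, in capitals, and after it come stretches of at most 30 bases around matches of the same type upstream of Cxcl10 (chr5:92349029-92349057, minus strand), Nfkbia (chr12:55492658-55492686, minus strand), Cxcl1 (chr5:90891165-90891193, plus strand) and Il6 (chr5:30013061-30013089, plus strand).
Icam1: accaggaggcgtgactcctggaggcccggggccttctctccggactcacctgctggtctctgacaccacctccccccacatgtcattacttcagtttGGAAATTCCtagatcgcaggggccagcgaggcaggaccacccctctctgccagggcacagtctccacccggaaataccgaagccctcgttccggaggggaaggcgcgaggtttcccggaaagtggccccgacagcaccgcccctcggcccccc
Cxcl10: gaggggagagGGAAATTCCaagttcatgg
Nfkbia: tgactggcttGGAAATTCCccgcgcctga
Cxcl1: ctgtactccgGGAATTTCCctggcccgga
Il6: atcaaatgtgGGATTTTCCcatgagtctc
The printed stretches are examples. Nfkbia has another match of the same type, GGACTTTCC, 178 bases before the start. Matches of this type upstream of Nfkbie, Nfkb2, Tnfaip3 and Cxcl2 are not printed. Of the 18 NF-kB list genes 13 have a window, and 8 of these hold either NF-kB type in at least 1 window. A gene can have several windows, while the 4.6% is a share of single windows, so the 2 are not directly comparable. Of the 3 genes most like Icam1, 2 have a window and 1 of these, Cxcl10, holds either type. The windows of Cd44, Cd200 and Alcam hold none of the 6 motifs. A match is a run of letters and was not tested as a site.

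Summed per sample, Cdh2 lay between 409 and 736 CPM in every tested class. It stood at 736 and 692 CPM in MSC, 721 and 637 CPM in Osteoblast progenitor, 576 and 545 CPM in Adipocyte progenitor, 545 and 590 CPM in Pro-osteoblast, 507 and 409 CPM in Pre-osteoblast/chondrocyte and 457 and 455 CPM in Pre-adipocyte. Its place in Pro-osteoblast depended on the scale. On the TMM scale Cdh2 was higher there than the mean of the other classes (log2 1.10, SE 0.11, adjusted p = 2.3e-14), and all 5 called pairs of the 15 were the pairs with Pro-osteoblast. With raw totals 4 pairs were called, and MSC over Pro-osteoblast went from -0.89 to 0.35 (adjusted p = 0.0332). With the same scale the Pro-osteoblast difference was 0.01 (adjusted p = 0.978) and MSC was called higher instead (0.43, adjusted p = 0.00252). The lower call in Pre-osteoblast/chondrocyte (-0.55, adjusted p = 0.0436) was also lost with raw totals (-0.40, adjusted p = 0.198). In that class the Stroma1 sum joined 26 counts in library 1.1 (931 CPM) and 2 counts in library 1.2 (73.3 CPM), and the call was lost without library 1.2 (-0.30, adjusted p = 0.478), 2.2 (-0.57, adjusted p = 0.0893) or 2.3 (-0.49, adjusted p = 0.119). At equal depth 26.2% of Pro-osteoblast and 27.2% of MSC cells had a Cdh2 count (unthinned 75.5% and 51.4%), against 0.893% of B lineage barcodes (unthinned 1.12%).

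Cdh11 was highest in Osteoblast progenitor and MSC and lowest in Pro-osteoblast by raw level. Its level was 1136 and 1069 CPM in Osteoblast progenitor, 1002 and 1113 CPM in MSC, 829 and 789 CPM in Adipocyte progenitor and 794 and 841 CPM in Pre-adipocyte. It was 435 and 526 CPM in Pre-osteoblast/chondrocyte and 304 and 335 CPM in Pro-osteoblast, so the late bone classes lay below the other 4 in both samples. Cdh11 was called higher in Osteoblast progenitor (log2 0.43, adjusted p = 0.00324) and MSC (0.33, adjusted p = 0.00903) and lower in Pre-osteoblast/chondrocyte (-0.77, adjusted p = 0.00111). In Pro-osteoblast it missed the threshold on the TMM scale (-0.28, adjusted p = 0.0585) and was lower with raw totals (-1.39, adjusted p = 7.7e-14). Osteoblast progenitor and MSC differed by less than their spread (MSC over Osteoblast progenitor -0.09, 95% interval -0.34 to 0.16). Thinned shares were 36.9% in Osteoblast progenitor, 35.8% in MSC and 12.7% in Pro-osteoblast (unthinned 62.4%, 59.6% and 54.5%), with 0.670% (unthinned 1.12%) in B lineage barcodes. The patterns most like Cdh11 were those of Gpc6 (a glypican, r = 0.976), Mdk (midkine, 0.972) and Anxa6 (an annexin, 0.971).

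Of the catenins and junction adaptors to which cadherins attach, 13 of 17 listed genes were tested. Ctnnb1 (beta-catenin) was 871 and 880 CPM in Pro-osteoblast and 276 and 317 CPM in MSC, and was higher in Pro-osteoblast (log2 1.80, 0.73 with raw totals) and lower in MSC (-1.46). Jup (plakoglobin) went the other way, at 106 and 90.6 CPM in MSC and 16.0 and 2.76 CPM in Pro-osteoblast. In all, 1 adaptor gene was higher and 7 lower in Pro-osteoblast, where 21.4% of all genes were higher and 17.9% lower. The numbers were 2 and 1 in MSC, 3 and 0 in Osteoblast progenitor and 3 and 0 in Pre-osteoblast/chondrocyte, with 0 and 1 in Adipocyte progenitor and 1 and 2 in Pre-adipocyte. Of 20 other cadherins and protocadherins 6 were tested. Cdh15 (M-cadherin) was at 109 and 125 CPM in Pre-osteoblast/chondrocyte and 37.4 and 64.1 CPM in Pro-osteoblast, with at most 4.19 and 33.4 CPM in any other class. Pcdh7 had 10 and 104 counts in Pro-osteoblast and at most 2 per sample elsewhere, and Pcdh19 was higher in MSC (log2 1.76) and lower in Pro-osteoblast (-2.62). Counts of other cadherins higher and lower were 1 and 2 in MSC, 1 and 1 in Adipocyte progenitor, 1 and 0 in Pre-adipocyte, 0 and 0 in Osteoblast progenitor, 2 and 0 in Pre-osteoblast/chondrocyte and 3 and 1 in Pro-osteoblast.

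**Figure D3:**
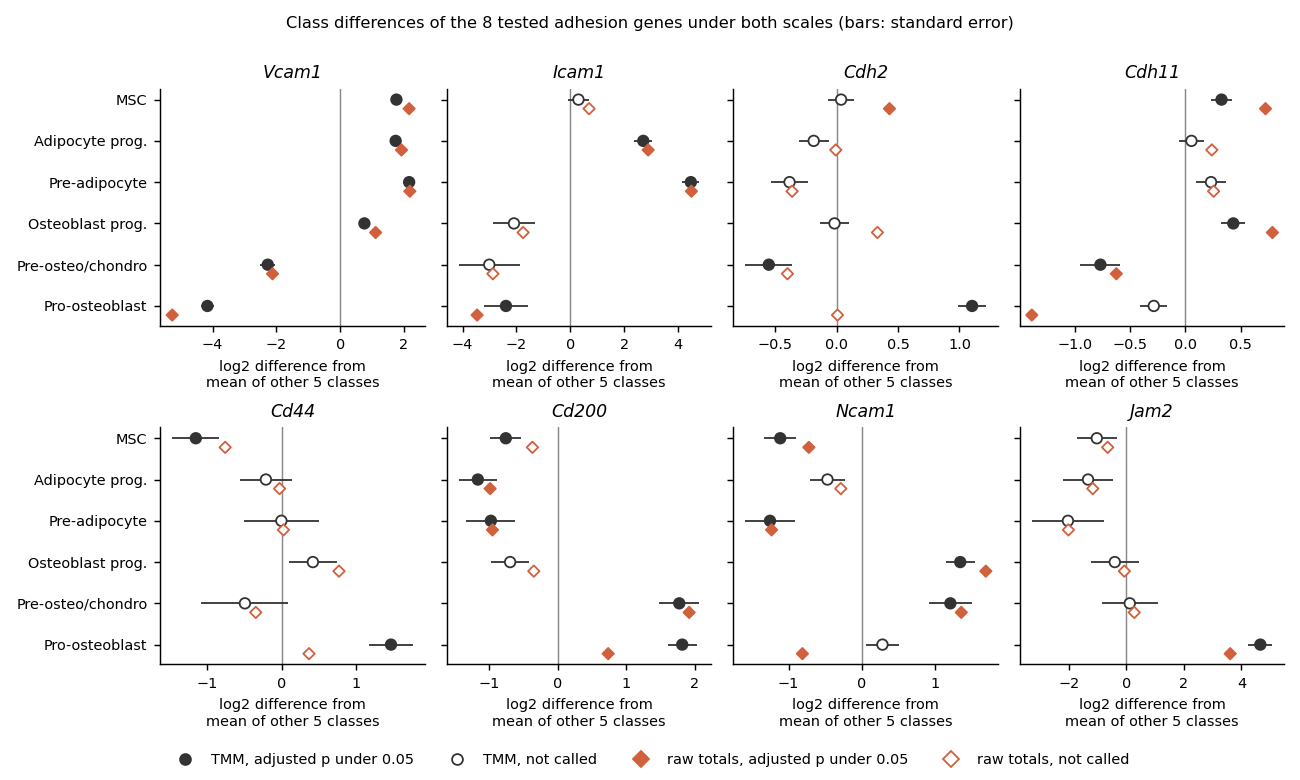
Log2 fold change of the 8 tested adhesion genes in each of the 6 tested classes against the mean of the other 5. Circles are the TMM scale, with bars of 1 standard error, and diamonds are raw totals, drawn without bars; filled points have an adjusted p under 0.05. In Pro-osteoblast the Ncam1 value changes sign between them (0.28 and -0.81) and the Cdh2 value goes from 1.10 to 0.01.

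Ncam1 was highest at the entry to the bone side. Its level was 251 and 404 CPM in Osteoblast progenitor and 344 and 242 CPM in Pre-osteoblast/chondrocyte. The other classes were at 98.7 and 69.2 CPM (MSC), 93.9 and 118 CPM (Adipocyte progenitor), 80.2 and 51.1 CPM (Pre-adipocyte) and 101 and 75.1 CPM (Pro-osteoblast), with no overlap between these 4 and the pair above. Ncam1 was higher in Osteoblast progenitor (log2 1.35, SE 0.20, adjusted p = 6.9e-08) and Pre-osteoblast/chondrocyte (1.21, SE 0.29, adjusted p = 0.00145), which did not differ beyond their spread (0.11, 95% interval -0.48 to 0.71). In cells thinned to 500 counts the Pre-osteoblast/chondrocyte call was lost (1.28, adjusted p = 0.0901). Ncam1 was lower in MSC (-1.12) and Pre-adipocyte (-1.26), and of 15 pairs 9 were called, or 8 with raw totals. In Pro-osteoblast the value was 0.28 with no call (adjusted p = 0.358) on the TMM scale and -0.81 (adjusted p = 0.00216) with raw totals. Thinned shares were 11.4% in Osteoblast progenitor and 10.99% in Pre-osteoblast/chondrocyte against 2.84% to 4.61% in the other 4 classes (unthinned 30.4% and 29.7% against 7.11% to 25.9%), and 0 of 448 B lineage barcodes had a count, which allows up to 0.670% (3 barcodes).

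The mitochondrial share of counts moved with Ncam1. It was 7.23% and 6.90% in Osteoblast progenitor and 7.74% and 6.37% in Pre-osteoblast/chondrocyte, against 2.73% to 4.32% in the other 4 tested classes, and its part in the Ncam1 result was not tested. The genes with the most similar pattern were Cox4i1 (r = 0.938), mt-Co3 (0.930) and mt-Atp6 (0.925), all of the respiratory chain. Of 5 Schwann cell genes, which mark another cell type with Ncam1, the sum was 214 and 283 CPM in Osteoblast progenitor and at most 141 CPM elsewhere, with Cdh19 at 0 in every class and sample.

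Alcam was close to the limit of detection and was not tested. It had 26 counts in all cells, of which 1 and 20 came from Pro-osteoblast (5.34 and 13.8 CPM), 3 from Pre-osteoblast/chondrocyte in Stroma2 and 2 from MSC in Stroma1. Unthinned, 4.61% of Pro-osteoblast cells had an Alcam count against 0 of 448 B lineage barcodes, and after thinning the share was 0.288%, the level of 1 cell. Among 34 other immunoglobulin-family and nectin adhesion genes, 10 were tested. Cadm1 was at 433 and 402 CPM in Pro-osteoblast and 290 and 292 CPM in Pre-osteoblast/chondrocyte, against 27.4 and 34.1 CPM in MSC, and was higher in Pro-osteoblast (log2 3.96). Chl1 ran the other way, from 90.5 and 94.5 CPM in MSC to 5.34 and 2.76 CPM in Pro-osteoblast. Of these genes 2 were higher and 2 lower in Pro-osteoblast, 3 and 1 in MSC, 3 and 2 in Pre-osteoblast/chondrocyte, 1 and 1 in Adipocyte progenitor, 0 and 2 in Pre-adipocyte and 0 and 0 in Osteoblast progenitor.

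Cd200 was raised in the late bone classes. It stood at 217 and 334 CPM in Pre-osteoblast/chondrocyte and 166 and 145 CPM in Pro-osteoblast, against 83.6 and 70.2 CPM in MSC, 71.2 and 82.3 CPM in Osteoblast progenitor, 53.2 and 54.7 CPM in Adipocyte progenitor and 40.1 and 65.1 CPM in Pre-adipocyte. All 4 values of the late bone classes lay above the other 8. Cd200 was higher in Pro-osteoblast (log2 1.81, SE 0.21, adjusted p = 7.9e-12) and Pre-osteoblast/chondrocyte (1.77, SE 0.29, adjusted p = 1.5e-06), and 0.74 higher in Pro-osteoblast with raw totals (adjusted p = 0.00298). It was lower in Adipocyte progenitor (-1.16), Pre-adipocyte (-0.97, adjusted p = 0.0395, a call lost with DESeq2 at 0.106) and MSC (-0.76), the last not called with raw totals (adjusted p = 0.209). The MSC call was also lost without library 1.1 (adjusted p = 0.0623) or 1.2 (adjusted p = 0.0678), and the Pre-adipocyte call without library 1.1 (adjusted p = 0.238), 2.1 (adjusted p = 0.119) or 2.3 (adjusted p = 0.0653). In cells thinned to 500 counts the Pre-osteoblast/chondrocyte call was lost (1.44, adjusted p = 0.0641). The lower calls in Adipocyte progenitor, MSC and Pre-adipocyte were also lost in thinned cells. The difference between the late bone classes depended on the scale. Pre-osteoblast/chondrocyte over Pro-osteoblast was -0.04 (95% interval -0.64 to 0.57) on the TMM scale and was called higher with raw totals (0.98, adjusted p = 0.0132), and 8 of 15 pairs were called, or 9 with raw totals. Thinned shares were 9.89% in Pre-osteoblast/chondrocyte and 6.63% in Pro-osteoblast (unthinned 30.8% and 37.2%), and 3.64% in MSC (unthinned 8.50%), with 0.223% in B lineage barcodes at either depth. The patterns most like Cd200 were those of Mrc2 (a collagen receptor, r = 0.943), Rpl4 (a ribosomal protein, 0.932) and Dmp1 (a mineral matrix protein of late osteoblasts and osteocytes, 0.930).

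Cd44 had low levels in the 6 tested classes and a high one in Pro-chondrocyte. It stood at 27.4 and 33.1 CPM in MSC, 56.3 and 39.97 CPM in Adipocyte progenitor, 32.1 and 60.4 CPM in Pre-adipocyte, 71.2 and 77.1 CPM in Osteoblast progenitor, 36.2 and 41.8 CPM in Pre-osteoblast/chondrocyte and 42.7 and 69.6 CPM in Pro-osteoblast. The samples overlapped between most classes. In the Pro-chondrocyte cells Cd44 had 13 and 21 counts, 2943 and 1795 CPM, in 9 of 14 cells, and the pooled level of 2110 CPM had an exact Poisson 95% interval of 1461 to 2949 CPM, which covers counting error only. Cd44 was higher in Pro-osteoblast (log2 1.46, adjusted p = 1.8e-05) and lower in MSC (-1.16, adjusted p = 0.00345), and neither call held with raw totals (0.36, adjusted p = 0.283, and -0.76, adjusted p = 0.0536). The MSC call was also lost without library 1.1 (-0.87, adjusted p = 0.103). Of 15 pairs 5 were called on the TMM scale and 2 with raw totals, the 3 lost pairs all being with Pro-osteoblast. Thinned to 500 counts, 3.57% of B lineage barcodes had a Cd44 count (unthinned 8.48%), and since blood cells carry Cd44 these barcodes give no background for it. No gene followed Cd44 closely, the most similar being Rgs3 (r = 0.645), Ppp1cb (0.640) and Gnas (0.596).

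Of 16 listed genes of hyaluronan handling and Cd44 partners, 8 were tested. Spp1 (osteopontin, a Cd44 ligand) was at 74070 and 78255 CPM in Pre-osteoblast/chondrocyte, against 2190 and 3452 CPM in Pro-osteoblast and 2093 and 1926 CPM in MSC, and was called higher in the first (log2 4.60). Msn (moesin, which links Cd44 to actin) was higher in Pro-osteoblast (1.52, and 0.43 with raw totals), and Tnfaip6, a hyaluronan-binding protein, was higher in Pre-adipocyte (3.31). The list had 3 higher and 0 lower in Pre-osteoblast/chondrocyte, 1 and 0 in Pro-osteoblast, 1 and 0 in Osteoblast progenitor, 1 and 1 in Pre-adipocyte, 0 and 2 in Adipocyte progenitor and 0 and 3 in MSC. Of 24 listed integrin subunits, which pair with matrix and with Vcam1 and Icam1 on other cells, 8 were tested. Itga9 was higher in Osteoblast progenitor (1.56) and lower in Pro-osteoblast (-4.12), Itga1 was higher in MSC (1.53), and Itga10 had 19 and 105 counts in Pro-osteoblast and 0 in both adipocyte classes. Itga10 was called higher in Pro-osteoblast (6.06) and also in Pre-osteoblast/chondrocyte (4.78). Integrins higher and lower numbered 1 and 1 in MSC, 1 and 0 in Adipocyte progenitor, 2 and 1 in Pre-adipocyte, 2 and 0 in Osteoblast progenitor, 3 and 1 in Pre-osteoblast/chondrocyte and 1 and 4 in Pro-osteoblast.

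Jam2 was found mainly in Pro-osteoblast and Pro-chondrocyte. It stood at 118 and 66.2 CPM in Pro-osteoblast (22 and 96 counts), and at no more than 18.1 CPM in any other tested class and sample. Jam2 was higher in Pro-osteoblast (log2 4.66, SE 0.42, adjusted p = 7.7e-17, and 3.61 with raw totals), and the 5 called pairs of 15 were those with Pro-osteoblast. In Pro-chondrocyte it had 6 and 12 counts in 7 of 14 cells, a pooled level of 1117 CPM with an exact Poisson interval of 662 to 1766 CPM. The share with a Jam2 count was 19.6% in Pro-osteoblast and 2.59% after thinning, against 0.670% and 0.223% in B lineage barcodes. Its pattern was most like those of the matrix and collagen-folding genes Sparc (r = 0.953) and Serpinh1 (0.946), and of Serpinf1 (0.938).

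The Pro-chondrocyte cells, few as they were, had a profile of their own by level. Vcam1, Icam1, Cdh11 and Alcam had 0 counts there, each allowing up to 186 CPM. Cdh2 had 0 and 4 counts, Ncam1 1 and 1, and Cd200 1 and 11 (226 and 940 CPM, in 7 of 14 cells). Cells in this class had medians of 885 and 1074 counts, and no test was made.

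Along the paths, each of the authors' pseudotimes was divided into 5 equal ranges, and range 5 was compared with range 1. The pseudotimes step evenly from cell to cell, as ranks do, so the ranges of a path hold nearly equal numbers of cells. The early ranges of the 3 paths are largely the same MSC cells, so values are set side by side and differences between paths were not tested. On the adipocyte path Icam1 rose from 63.1 and 30.3 CPM in range 1 to 114 and 128 CPM in range 4 and 369 and 323 CPM in range 5 (log2 3.20, SE 0.34, adjusted p = 1.5e-11). It was the 1 gene called of 7 tested, with 0 lower, where 8.81% of all 5904 genes were higher and 3.27% lower (12.1% in all). Vcam1 was 3319 and 3269 CPM at the start of this path and 2978 and 2809 CPM at its end. It was called on neither scale (0.06, adjusted p = 0.720, and -0.20 with raw totals, adjusted p = 0.0987). With raw totals Cdh11 (-0.49) and Cdh2 (-0.52) were also called, as lower, where 15.2% of all genes were called. Of 16 tested NF-kB genes 11 were higher and 0 lower here, with a median of 2.39. Range 5 of this path held 55.4% Pre-adipocyte and 44.3% Adipocyte progenitor cells.

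On the osteoblast path 7 of 8 tested genes were called, 5 higher and 2 lower, where 18.5% of all 5709 genes were higher and 19% lower (37.5% in all). Vcam1 fell from 3319 and 3254 CPM to 1914 and 1759 CPM in range 4 and 125 and 39.2 CPM in range 5 (log2 -4.77, SE 0.22, adjusted p = 2.7e-28). Cdh11 fell from 1223 and 1225 CPM to 318 and 358 CPM (-0.79, adjusted p = 1.4e-04, and -1.90 with raw totals). The TMM call of Cdh11 was lost with 3 ranges of pseudotime (-0.26, adjusted p = 0.488) and with a linear term over the 5 ranges (-0.52, adjusted p = 0.345). Range 4 was 79.5% Osteoblast progenitor cells and range 5 was 89.4% Pro-osteoblast cells, so the late fall of Vcam1 lay between those classes.

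Cd200 rose on the osteoblast path from 62.4 and 59.5 CPM to 164 and 143 CPM (log2 2.36, and 1.26 with raw totals), and Cd44 from 28.8 and 23.1 CPM to 53.1 and 67.0 CPM (2.31, and 1.20 with raw totals). Jam2 rose from 3 and 1 counts to 26 and 96 counts (4.44, adjusted p = 2.1e-08). Ncam1 peaked before the end, at 52.8 and 59.5 CPM in range 1, 246.5 and 296 CPM in range 4 and 101 and 97.6 CPM in range 5, and its end over start was 1.85 on the TMM scale and 0.74 (adjusted p = 0.0580) with raw totals. Cdh2 was higher on the TMM scale (0.80) and reversed to -0.30 (adjusted p = 0.160) with raw totals. Icam1 had 7 and 0 counts in range 5 and was not called on the TMM scale (-1.75, adjusted p = 0.110). With raw totals it was called lower (-2.81, adjusted p = 0.00354). Its TMM fold was 0.04 in Stroma1 alone and -6.50 in Stroma2 alone. With raw totals 3 of the genes were higher and 3 lower, where 61.1% of all genes were called.

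**Figure D4:**
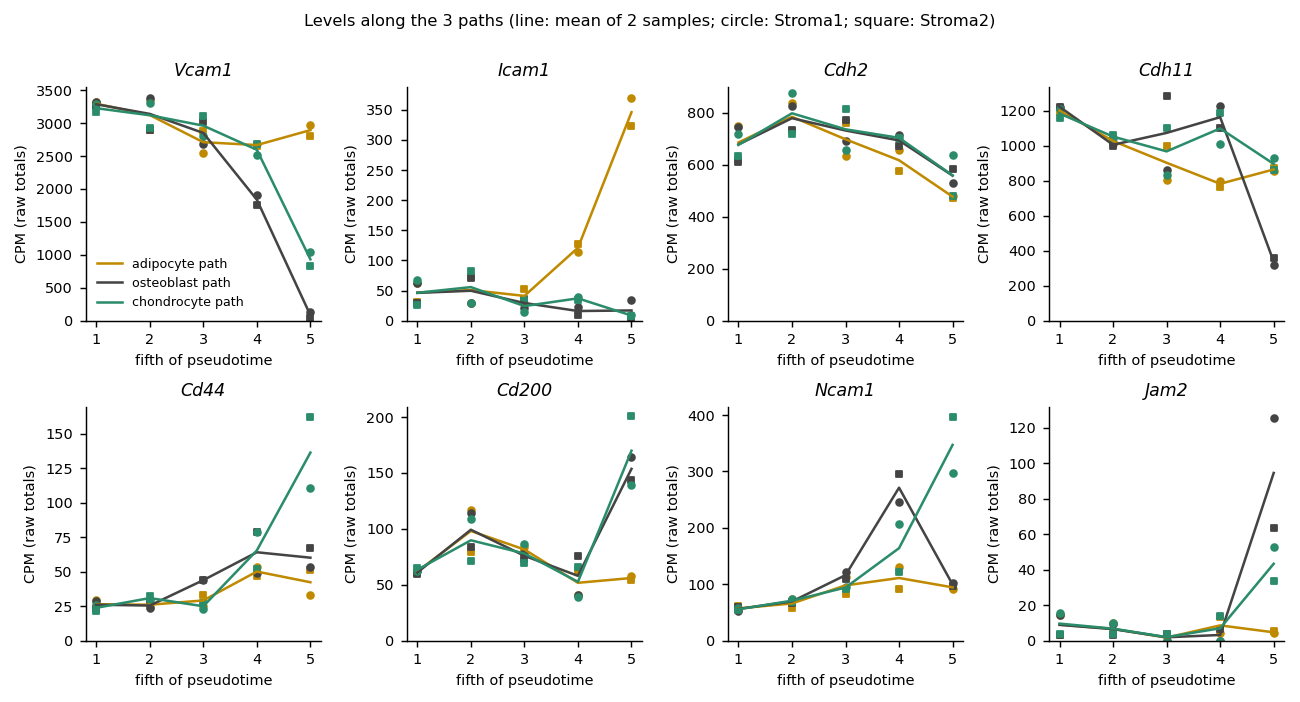
Level of 8 adhesion genes (all but Alcam) over 5 ranges of pseudotime with nearly equal numbers of cells, numbered on the horizontal axis, in counts-per-million of all counts on linear axes. Each path has its colour, circles are Stroma1, squares Stroma2, and lines join the means of both. On the osteoblast path Vcam1 drops from 1914 and 1759 CPM in range 4 to 125 and 39.2 CPM in range 5, while on the adipocyte path Icam1 reaches 369 and 323 CPM in range 5.

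On the chondrocyte path 5 of 7 tested genes were called, 3 higher and 2 lower, where 9.49% of all 5596 genes were higher and 9.15% lower (18.6% in all); with raw totals 3 were higher and 3 lower (18.3% of all genes called). Ncam1 rose from 56.9 and 53.9 CPM to 297 and 397 CPM (log2 2.74, SE 0.31, adjusted p = 4.8e-11), Cd44 from 25.9 and 21.6 CPM to 110 and 162 CPM (2.62, SE 0.46) and Cd200 from 62.1 and 64.7 CPM to 139 and 201 CPM (1.52, SE 0.35). Vcam1 fell from 3292 and 3161 CPM to 1036 and 825 CPM (-1.75, SE 0.11, adjusted p = 3.4e-23). Cdh11 was not called on the TMM scale (-0.34, adjusted p = 0.0552) and was called lower with raw totals (-0.40, adjusted p = 0.018). Icam1 went from 67.3 and 25.1 CPM to 9.59 and 7.26 CPM, the last from 2 and 3 counts. Its lower call (-2.33, adjusted p = 0.0264) was lost without library 1.1 (adjusted p = 0.0733), 1.2 (adjusted p = 0.245), 2.2 (adjusted p = 0.0586) or 2.3 (adjusted p = 0.0671), and the Cd200 call was lost without library 1.1 (1.27, adjusted p = 0.0611). Range 5 of this path was 67.7% Osteoblast progenitor, 24.5% Pre-osteoblast/chondrocyte and 3.90% Pro-chondrocyte cells. All 14 Pro-chondrocyte cells lay in this range and held 13 of its 23 Cd44 counts in Stroma1 and 21 of 67 in Stroma2. Without them Cd44 was at 49.0 and 115 CPM there and was still called higher (1.92, adjusted p = 0.00399), as were Cd200 (1.404) and Ncam1 (2.76).

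In the lists tested along the paths, Spp1 was higher at the end of the chondrocyte path (log2 4.11) and of the osteoblast path (2.10, and 1.01 with raw totals). Hyaluronan genes and Cd44 partners had 3 higher and 0 lower on the chondrocyte path, 4 and 0 on the osteoblast path and 2 and 0 on the adipocyte path. Catenins and adaptors had 1 and 4 on the osteoblast path, where Ctnnb1 was higher (2.82, and 1.73 with raw totals) and Jup lower (-3.18), with 3 and 1 on the chondrocyte path and 1 and 0 on the adipocyte path. Cadm1 rose at the end of the osteoblast (5.03) and chondrocyte (2.86) paths, its list having 2 and 3, 1 and 2, and on the adipocyte path 0 and 0. Other cadherins had 3 and 2 on the osteoblast path, 1 and 1 on the chondrocyte path and 0 and 0 on the adipocyte path, and integrins 1 and 2, 3 and 0, and 0 and 0 in the same order. NF-kB genes had 0 and 7 of 11 on the osteoblast path and 3 and 0 of 11 on the chondrocyte path. Of all genes, 37.5% were called on the osteoblast path, 18.6% on the chondrocyte path and 12.1% on the adipocyte path.

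**Figure D5:**
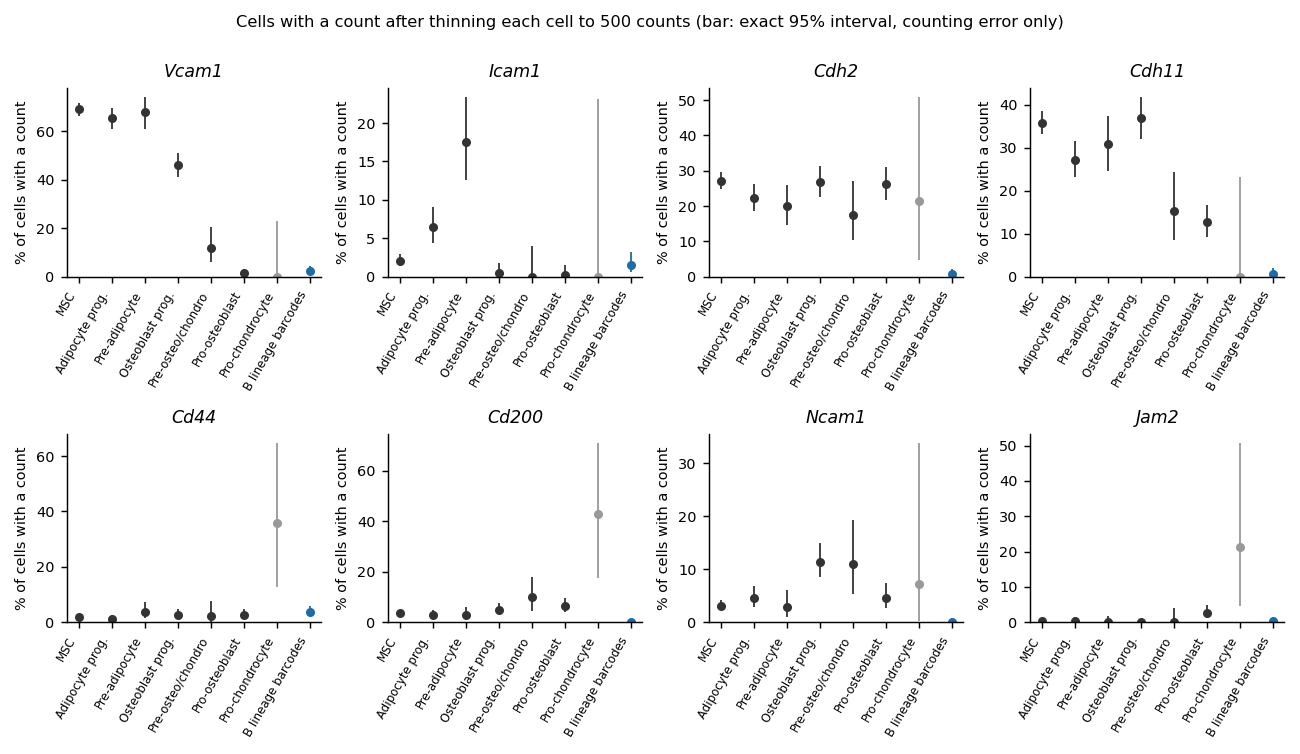
Percent of cells with a count of each of 8 adhesion genes (all but Alcam) after every cell was thinned to 500 counts, in the 6 larger classes (black), Pro-chondrocyte (grey) and B lineage barcodes outside the filter (blue). These barcodes are no background for Cd44, and whether they are one for Icam1 was not tested. Bars are exact 95% intervals over the cells of both samples and cover counting error only. Vcam1 was found in 69.0% of MSC and 1.44% of Pro-osteoblast cells, and in 2.46% of the B lineage barcodes.

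In single cells thinned to 500 counts, an MSC cell had a count of 1.45 and 1.42 of the 9 genes on average, and a Pro-osteoblast cell of 0.667 and 0.561. No adhesion gene was seen in 13.3% and 14.7% of MSC cells and in 45.2% and 55.4% of Pro-osteoblast cells. Within MSC the common genes were found together about as often as their separate shares give, Vcam1 with Cdh2 in 263 cells (247 from the shares), Vcam1 with Cdh11 in 332 (326) and Cdh2 with Cdh11 in 128 (128). Vcam1 and Icam1 occurred together in 24 Pre-adipocyte cells, where the shares give 25.1. These counts describe cells of the same samples and were not tested.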

How the data were processed

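RNA of sorted mouse marrow stroma was read with the inDrops droplet method in 5 libraries of 2 samples. The deposited table holds whole-number counts for 25289 genes in 15028 barcodes; the submitters' processing notes name Bowtie 1.1.1 and GRCm38, while the sources used here give no counting tool, treatment of molecular identifiers or annotation. The authors' fractions, per the file headers, are the mitochondrial share of each barcode and pseudotimes scaled from 0 to 1 on 3 paths. Classes and the filter are the authors'. The sources name no treatment of doublets, and no caller was run.

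Counts of passing cells (2847) were summed per sample and class, or per sample and range of pseudotime, with at least 15 cells per sum. They were tested with edgeR 4.0.16 in R 4.3.3 (TMM, filterByExpr with a minimum count of 10, quasi-likelihood F test, terms for class and sample, the sample being a block), Benjamini-Hochberg adjusted over all genes tested. The standard error is the size of the log2 fold over the square root of F, and 95% intervals are 1.96 standard errors on either side. Shares have exact Clopper-Pearson intervals, and the limit given beside a count of 0 is the level of 3 counts; both cover counting error only. The sample block pairs the sums of all classes of a sample, since these come from the same libraries. The planned background from hemoglobin-rich barcodes had only 7 of them, so 448 barcodes with at least 3 of 5 B lineage markers replaced it, a choice made after seeing the data. Likeness of pattern is Pearson's r of log2(CPM + 10) over 12 sums, among genes with a mean of at least 100 CPM. Named are all 9 genes, the 3 genes most like each, and from 6 gene lists (integrins, other cadherins, catenins and junction adaptors, other immunoglobulin-family and nectin genes, hyaluronan and Cd44 partners, NF-kB genes) the called genes of largest rise or fall; Nfkbia was named in addition, after its values were seen. The genes and lists were chosen with earlier results of these data known. Fits were checked on simulated counts. Alternatives were DESeq2 1.42.0, RLE factors, raw totals (added after seeing the data), other count filters, thinned cells, each barcode once, all 7 classes, other pseudotime terms, no replicate block and leaving out each sample. Leaving out each library (with sums of 11 and 14 cells in Pre-osteoblast/chondrocyte) and, on the chondrocyte path, the Pro-chondrocyte cells were added after seeing the data.

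Positions are from GENCODE vM21 (GRCm38): Vcam1 chr3:116109949-116129688, Icam1 chr9:21015985-21028817, Cdh2 chr18:16588877-16809246, Cdh11 chr8:102632095-102785642, Cd44 chr2:102811141-102901665, Cd200 chr16:45382135-45409053, Ncam1 chr9:49502136-49798925, Alcam chr16:52248996-52454074 and Jam2 chr16:84774123-84825928.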

Additional observations from a re-analysis of the deposited data

Results flagged for a closer look

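Endothelial cells were to be removed by the sort, yet 221 barcodes outside the authors' filter carried at least 3 endothelial markers, with a median of 1241 counts. They enter no comparison above. After thinning to 500 counts, Vcam1 was found in 28.5% of them, Icam1 in 11.8%, Cd200 in 10.9% and Jam2 in 6.33%. In 447 B lineage barcodes outside the filter, read the same way, the shares were 2.46% for Vcam1, 1.57% for Icam1, and 0.224% for both Cd200 and Jam2. Unthinned, the endothelial marker barcodes had a count in 40.7% for Vcam1, 23.5% for Icam1, 24.0% for Cd200 and 15.8% for Jam2. Cdh2, Cdh11 and Cd44 had a count in 0 of these 221 barcodes after thinning.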

How the results depend on the processing

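Of 1111 recomputed values of 70 folds, 1027 kept their direction and, where tested, their call, 52 lost a call, 27 gained one and 5 reversed. Among the 1111 were 140 folds of a single sample, which had no test and so no call to keep. Cdh11 reversed with all 7 classes in the fit, to 1.05 in Pre-osteoblast/chondrocyte and 1.56 in Pro-osteoblast, a fit that lets the 14 Pro-chondrocyte cells, with 0 Cdh11 counts, weigh as much as any class. With raw totals Ncam1 in Pro-osteoblast was -0.81 and Cdh2 at the end of the osteoblast path -0.30. Leaving out a sample gave no test, and the Icam1 fold in Pro-osteoblast then ranged from -7.64 to 1.05, while the other 139 such folds kept their sign.

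Counts of genes called moved as follows, and the cause was not tested beyond the fewer genes left after thinning. Thinned cells gave 3 calls in MSC (5 without thinning), 2 in Pre-osteoblast/chondrocyte (5), 3 in Pro-osteoblast (6) and 3 on the chondrocyte path (5). The calls lost in Pre-osteoblast/chondrocyte were those of Cdh2, Cd200 and Ncam1. All 7 classes gave 6 in Adipocyte progenitor (3) and 2 in Pre-osteoblast/chondrocyte (5). In that fit Vcam1 kept its direction but lost its call in Pre-osteoblast/chondrocyte (-0.36) and Pro-osteoblast (-2.165). A linear term over the ranges gave 2 on the adipocyte path (1) and 4 on the osteoblast path (7), and raw totals gave 3 on the adipocyte path. Among the calls lost with the linear term was that of Vcam1 on the osteoblast path (-3.04, adjusted p = 0.0593). Leaving out each library gave 3 to 5 calls in MSC, the 3 without library 1.1. Of calls gained, Icam1 was lower on the osteoblast path without library 1.1 (-4.46) and in Pre-osteoblast/chondrocyte without library 2.2 (-6.97).

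Without the replicate block the Cdh2 call in Pre-osteoblast/chondrocyte was lost (-0.55, adjusted p = 0.0507), and no other call changed. With each barcode once per sample the Cd200 call in Pre-adipocyte was lost (-0.89) and Icam1 was called lower in Pre-osteoblast/chondrocyte (-2.99). RLE factors lost the Cd200 call in Pre-adipocyte (-0.91) and called Cdh11 lower in Pro-osteoblast (-0.39). DESeq2 lost 5 calls, among them Icam1 in Adipocyte progenitor (2.47, adjusted p = 0.191), and gained Cdh11 in Pro-osteoblast (-0.40). Depth limits Icam1 in the bone classes, Alcam everywhere and all of Pro-chondrocyte.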

Other observations

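The 5 libraries taken one at a time gave these ranges. Vcam1 ran from 2793 to 3216 CPM over the libraries in MSC and from 18.6 to 152 CPM in Pro-osteoblast, with no overlap. Icam1 in Pre-adipocyte ran from 297 to 559 CPM against 33.6 to 77.8 CPM in MSC. Ncam1 in Osteoblast progenitor ran from 197 to 514 CPM against 55.6 to 101 CPM in MSC. Pre-osteoblast/chondrocyte was uneven over the libraries, with Cdh2 from 73.3 to 931 CPM and Cd200 from 73.3 to 600 CPM, the latter overlapping with MSC at 57.0 to 98.9 CPM. Libraries of a sample share its cells' source and are not replicates.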
